A study of Mus musculus with 18 samples.

Results

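V6.5 ESC, a mouse embryonic stem cell line, were compared with mouse embryonic fibroblasts (MEF) over the 6 arrays titled as Dnmt3ab iPSC, out of 18 in the series. No array held both RNAs. Each of 3 clones of induced pluripotent stem cells (iPSC) deficient in Dnmt3a and Dnmt3b, named 8, A6 and B2, was read once beside V6.5 ESC and once beside MEF, and served as the link between them. V6.5 ESC was in the red dye (Cy5) with the clone in green (Cy3) on 3 arrays, and on the other 3 arrays MEF was in Cy3 with the clone in Cy5. V6.5 ESC is 1 line and MEF carries no label beyond its name, so its strain, age, passage, sex and number of embryos are not given in the sources used here. Each was a single reference RNA on all of its arrays by its label, and neither was treated or carries a stated mutation. The feeder cells named in the growth protocol, irradiated MEF removed by passage on gelatin before RNA was taken, are described for the iPSC lines. The spread between the 3 links is therefore that of array measurements, not of cultures. The dye was never swapped between V6.5 ESC and MEF. In bulk RNA, fewer cells of a type and less RNA per cell cannot be told apart.

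Embryonic stem cells are cells of the early embryo kept dividing in culture. They hold their state through a small circuit of transcription factors around Pou5f1 (Oct4), Sox2 and Nanog, grow as tight epithelial-type colonies and divide fast. Embryonic fibroblasts are mesenchymal cells grown from the body of the embryo that secrete collagen and other matrix, carry contractile actin fibres and keep the Hox code of their position. They are the usual starting cell of reprogramming, so the distance between these 2 cell types is the one that reprogramming has to cover.

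For each clone the log2 ratio of clone over V6.5 ESC was subtracted from that of clone over MEF, which gave V6.5 ESC over MEF and is called the link value here. A link value of 1 is a 2-fold difference, and positive values are higher in V6.5 ESC. Errors are SD over the 3 links. Values of the arrays are listed in the order of clones 8, A6 and B2, as normalised log2 signals. Calls required an adjusted p under 0.05 (limma over all genes, Benjamini-Hochberg) and a difference of at least 1 log2 unit. Because a dye bias enters the link value from both arrays, a dye-balanced value, in which V6.5 ESC and MEF are each set against the same clone within 1 dye, is given for a called gene where it differs by over 1.5 times or changes the call.

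The share of probes well above background was 75.87% to 78.87% in V6.5 ESC channels and 69.69% to 73% in MEF channels. Median net signal was 235.3 to 264.4 in V6.5 ESC channels and 131.8 to 144.4 in MEF channels, and no spot was saturated. The MEF channels of the 3 arrays correlated across genes at 0.9986 to 0.9988. The V6.5 ESC channel of the clone 8 array stood apart: it correlated at 0.9923 with that of clone A6 and 0.994 with that of clone B2, while A6 and B2 correlated at 0.9979. On the clone 8 array 63 genes were at least 1 log2 unit lower in V6.5 ESC than on both other arrays and 22 were higher. By the same rule the V6.5 ESC channel had 0 lower and 3 higher on the A6 array and 2 lower and 5 higher on the B2 array, and the MEF channel of the clone 8 array had 1 lower and 4 higher. The clone 8 arrays were on a slide of their own, and those of clones A6 and B2 shared another, so slide and clone cannot be told apart here. Genes of this kind named below are given by array or with the value without clone 8.

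V6.5 ESC and MEF differed widely. Of 21941 genes tested, 2737 were called higher in V6.5 ESC (12.5%) and 3272 lower (14.9%). Without clone 8 the counts were 2618 higher and 3364 lower. At any size of difference, 13930 genes had an adjusted p under 0.05, 6897 of them higher and 7033 lower. The median SE of a link value was 0.0722 log2 units and the median absolute link value 0.43. Link values of clone 8 correlated with those of A6 at 0.9673 and of B2 at 0.976, and those of A6 and B2 at 0.9913. The genes and lists below were chosen with earlier results of these data known, so their counts are descriptions to be read beside 12.5% and 14.9%.

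**Figure D1:**
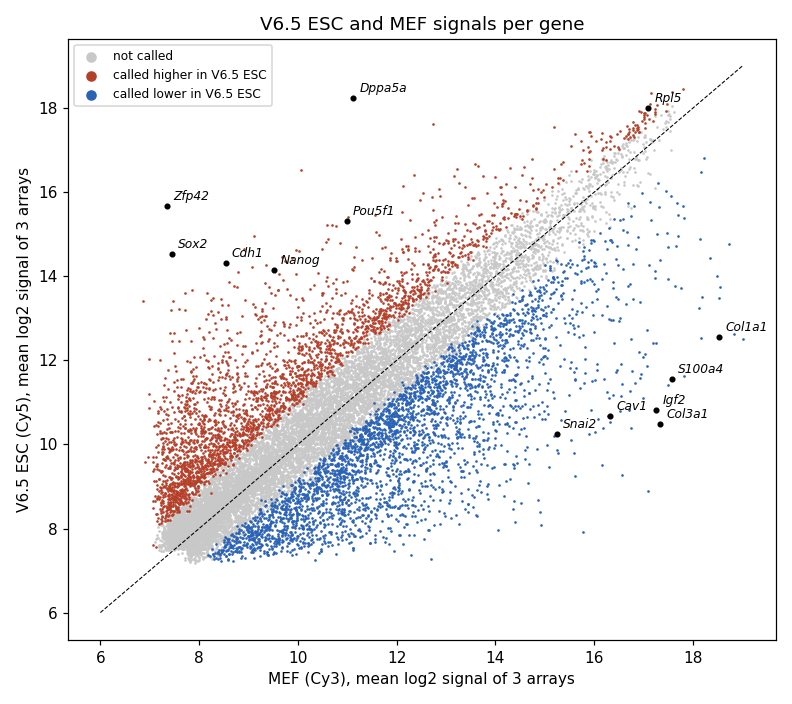
Mean log2 signal per gene in V6.5 ESC (y axis, Cy5, 3 arrays) against MEF (x axis, Cy3, 3 arrays), with called genes in colour. The dashed line marks equal signal; Zfp42 lies above it at a link value of 8.87, Col1a1 below it at -6.81.

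The defining markers of both cell types were read first, as a check of the labels. Zfp42 (Rex1), a zinc finger protein of naive ESC, read 15.66, 15.74 and 15.64 in V6.5 ESC, against 7.42, 7.38 and 7.25 in MEF. Its link value was 8.87 ± 0.09 log2 units (limma adjusted p = 1.82e-06, n = 3 links), the largest rise of all genes with a symbol. Its probe lies at chr8:42080746-42080805 (mouse build mm7, as the array files give it). Col1a1, the main chain of fibrillar collagen, read 12.65, 12.48 and 12.53 in V6.5 ESC, against 18.44, 18.60 and 18.57 in MEF, and its link value of -6.81 ± 0.17 was the largest fall (adjusted p = 1.82e-06). Its probe lies at chr11:95060800-95060859. No array of one RNA overlapped with any of the other for either gene. All 9 ESC markers measured were called higher, with a median of 4.50, and all 12 fibroblast markers lower, with a median of -4.81. The 3 probes of Col1a1 gave one direction and different sizes, with link values of -6.81, -3.94 and -2.88. The markers of both cell types thus lay as the labels say.

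Of 20 core pluripotency factors measured, 17 were higher in V6.5 ESC and 1 lower, with a median link value of 2.93 beside 0.01 over all genes. Pou5f1, the POU factor that keeps the pluripotent state, read 15.27, 15.35 and 15.32 in V6.5 ESC, against 10.94, 11.07 and 10.95 in MEF, a link value of 4.18 ± 0.01 (adjusted p = 1.96e-06). Its partner Sox2, an HMG-box factor, read 14.55, 14.57 and 14.49 in V6.5 ESC, against 7.39, 7.47 and 7.47 in MEF, with a link value of 7.24 ± 0.07 (adjusted p = 1.82e-06). Nanog, the homeobox factor of the same circuit, read 14.12, 14.16 and 14.14 in V6.5 ESC, against 9.61, 9.59 and 9.36 in MEF, and its link value was 4.70 ± 0.10 (adjusted p = 1.96e-06). For all 3 factors every V6.5 ESC array lay above every MEF array, and the arrays of each RNA lay close together. Mycn (6.37), Nr0b1 (Dax1, 6.04) and Sall4 (5.44), further regulators of ESC, also rose. The exception was Myc, which is induced by growth signals in many cell types. It read 10.17, 10.90 and 10.44 in V6.5 ESC, against 13.27, 13.32 and 13.30 in MEF, a link value of -2.94 ± 0.26 (adjusted p = 9.3e-06), so the 2 Myc family members went opposite ways. Zfp281 (0.14) and Tcf3 (-0.24) were not called.

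The start regions of 3 of these genes and of 1 fibroblast gene are shown because Pou5f1 protein binds an octamer, of which the letters ATGCAAA were searched on both strands (TTTGCAT on the other), with the TATA box letters TATAAA beside them. Each run is 300 bases from RefSeq (build GRCm38.p6), 250 before and 50 after the start, read along the gene. Capitals mark the matches. These genes were picked by name, with 1 start region each, and other genes and starts are not shown. Every one of them holds the octamer letters, so these runs do not show how common a match is.
Nanog, chr6:122707239-122707538, + strand: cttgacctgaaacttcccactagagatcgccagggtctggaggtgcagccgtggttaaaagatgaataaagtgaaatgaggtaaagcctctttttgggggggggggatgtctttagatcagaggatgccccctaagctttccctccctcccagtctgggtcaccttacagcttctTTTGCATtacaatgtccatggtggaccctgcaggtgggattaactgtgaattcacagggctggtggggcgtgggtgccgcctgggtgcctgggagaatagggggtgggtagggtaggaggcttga
Sox2, chr3:34649745-34650044, + strand: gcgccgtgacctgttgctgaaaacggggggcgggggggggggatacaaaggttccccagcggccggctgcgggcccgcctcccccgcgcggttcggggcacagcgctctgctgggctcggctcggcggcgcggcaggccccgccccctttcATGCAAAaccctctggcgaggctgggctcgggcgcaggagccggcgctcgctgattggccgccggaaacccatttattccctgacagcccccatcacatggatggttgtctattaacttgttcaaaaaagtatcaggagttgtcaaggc
Zfp42, chr8:43306960-43307259, - strand: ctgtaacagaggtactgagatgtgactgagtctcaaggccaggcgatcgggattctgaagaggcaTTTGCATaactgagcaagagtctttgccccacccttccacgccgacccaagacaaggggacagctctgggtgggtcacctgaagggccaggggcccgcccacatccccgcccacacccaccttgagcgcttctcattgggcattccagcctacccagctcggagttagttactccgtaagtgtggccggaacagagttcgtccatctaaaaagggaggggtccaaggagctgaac
Col3a1, chr1:45311288-45311587, + strand: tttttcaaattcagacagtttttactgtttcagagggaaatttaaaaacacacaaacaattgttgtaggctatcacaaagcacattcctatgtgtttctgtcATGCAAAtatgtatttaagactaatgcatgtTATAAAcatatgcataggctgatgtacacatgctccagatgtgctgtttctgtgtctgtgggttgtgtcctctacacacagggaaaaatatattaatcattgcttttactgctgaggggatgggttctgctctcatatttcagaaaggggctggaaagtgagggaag
The octamer letters begin at position -75 from the start in Nanog, -99 in Sox2 and -185 in Zfp42. They also begin at -148 in Col3a1, which had a link value of -5.61, with TATAAA at -117. No 2 matches overlap in these runs. Over all 32851 promoters in the RefSeq table, a share of 4.63% held the octamer letters, against 4.23% of the 2366 promoters of genes called higher and 3.26% of the 3095 of genes called lower. TATAAA stood in 8.92% of promoters of genes called higher and 8.63% of those of genes called lower, with 13.62% over all. The full set is not a matched one, as it also holds promoters of genes not tested here. Its median number of CG pairs was 7, against 18 for genes called higher and 19 for genes called lower. A match is a description of letters, not a binding site. CG pairs numbered 27 in the Sox2 run, 11 in Zfp42, 4 in Nanog and 0 in Col3a1.

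Factors of the naive state, which ESC share with the inner cell mass, rose with the core circuit. Of 27 measured, 20 were higher and 2 lower, with a median of 3.07. Tfcp2l1, a transcription factor downstream of LIF, had a link value of 5.37 ± 0.20, and all 4 of its probes were called. Ooep (5.10), Nr5a2 (4.69), Esrrb (4.14) and Klf5 (3.07) were also higher. Klf4 (0.99) and Klf2 (0.94) lay just under the size threshold. Both members that fell act in LIF signalling but also in many other cells: Il6st, the shared receptor chain gp130, at -2.83 ± 0.18 and Stat3 at -1.62 ± 0.05 (dye-balanced -0.94, not called). Another Stat3 probe, well above background in both RNAs, was at -0.21. Among genes of the Dppa family and stem cell surface or secreted genes, 23 of 29 were higher and 1, Cd24a, was lower (-2.69). Dppa5a, an RNA-binding protein of ESC, read 18.11, 18.26 and 18.35 in V6.5 ESC, against 11.06, 11.13 and 11.19 in MEF. Its link value was 8.45 ± 0.14 and its dye-balanced value 5.78. Alpl, the tissue-nonspecific alkaline phosphatase stained to find ESC colonies, had a link value of 6.12 ± 0.21.

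Genes of the primed epiblast, the next stage of the embryo, were mixed. Of 18 measured, 7 were higher and 3 lower. Pou3f1 (3.01) and Otx2 (2.96) rose. Cdh2 (N-cadherin) fell by 3.40, and Krt19 (-1.90) and Sfrp2 (-1.65) also fell. T (0.18), Mixl1 (-0.02) and Fgf5 (-0.20) were not called. The Fgf5 mean hides a split between arrays: V6.5 ESC read 7.87, 9.96 and 9.95, against 9.68, 9.49 and 9.50 in MEF, so V6.5 ESC lay below MEF on the clone 8 arrays and slightly above on the others.

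Epithelial adhesion genes were higher in V6.5 ESC for 24 of 37 measured members and lower for 3, with a median of 2.08. Cdh1 (E-cadherin), which holds ESC in colonies, read 14.27, 14.35 and 14.34 in V6.5 ESC, against 8.56, 8.54 and 8.52 in MEF, a link value of 5.70 ± 0.03 (adjusted p = 1.82e-06). Cdh2, the cadherin of mesenchymal cells, went the opposite way and read 8.01, 8.76 and 8.61 in V6.5 ESC, against 11.63, 11.56 and 11.59 in MEF. Lsr, of tricellular junctions, had a link value of 4.87 ± 0.14 and Epcam one of 4.04 ± 0.35. The tight junction genes Cldn7, Cldn4, Cldn6, Cldn3 and Ocln were all called higher, with Cldn7 at 3.19, Cldn4 at 2.44 and Cldn6 at 2.08. Ocln was not well above background in MEF and was at least 2.59-fold higher in V6.5 ESC. Among keratins, Krt8 rose (2.37), Krt18 was not called (0.60), and Krt7 (-2.24, dye-balanced -3.65) and Krt19 (-1.90) fell. Pkp1, a desmosome plakophilin, fell as well (-1.51).

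Germline genes were higher in V6.5 ESC for 42 of 60 measured members and lower for 1, with a median of 2.22 (41 higher without clone 8). All 6 germ cell markers rose. Ddx4 (Vasa), a helicase of germ cells, read 12.80, 12.60 and 12.57 in V6.5 ESC, against 7.50, 7.43 and 7.58 in MEF, with a link value of 5.41 ± 0.21. Dazl, an RNA-binding protein of germ cells, had a link value of 5.25 ± 0.24. Smc1b, the meiotic cohesin subunit, was at 5.63 ± 0.19, and Stra8, the retinoic acid response gene of meiotic entry, at 4.63 ± 0.32. Of the synaptonemal complex genes, Syce1 was higher (2.10) and Sycp2 was not called (0.76). Sycp3 and Sycp1 were not well above background on any MEF array and were at least 13.5-fold and 5.06-fold higher in V6.5 ESC. Sycp1 is one of the genes that were low on the clone 8 array, reading 8.81, 10.07 and 9.84 in V6.5 ESC. Tdrd7, a Tudor protein also used outside the germline, was the single member that fell (-3.21). Genes of the 2-cell stage program, which flickers in a few ESC at a time, rose in 6 of 14 measured members, among them Zscan4c (3.18), Tcstv1 (2.38) and Tcstv3 (2.29), which have near-identical copies that a probe may not tell apart. None of the 14 was called lower. Dppa4 (4.69) and Dppa2 (2.72) are on that list too.

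**Figure D2:**
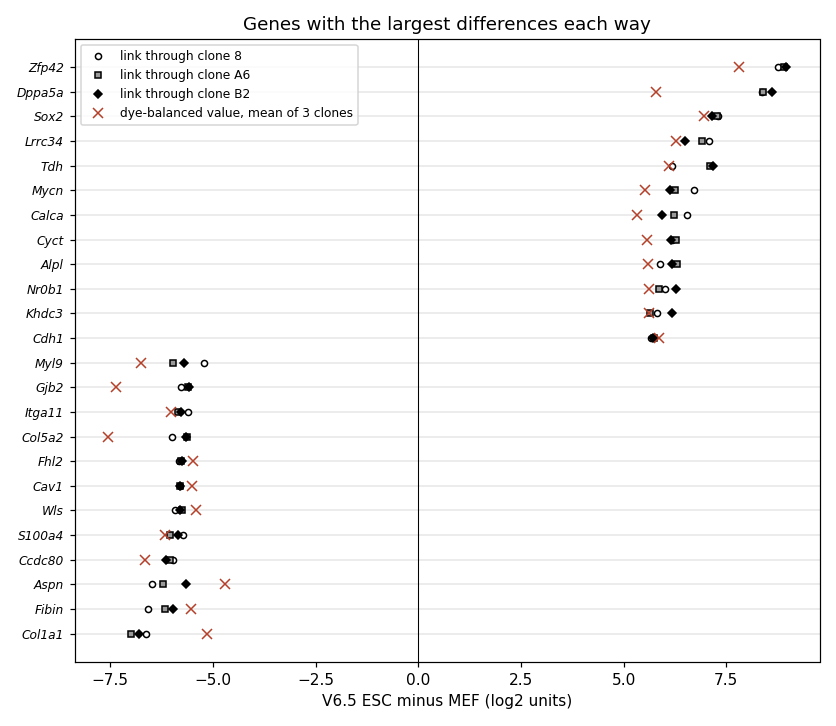
The 12 genes with the largest rises and the 12 with the largest falls in V6.5 ESC over MEF, in log2 units, as the link value through each clone and the mean dye-balanced value. The 3 links of a gene lie close together; the dye-balanced value of Dppa5a (5.78) is smaller and that of Col5a2 (-7.55) larger in size.

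The 12 largest rises also held genes outside the lists of core and naive factors. Of these, Tdh is on the list of Dppa and stem cell genes given above. Tdh, threonine dehydrogenase, which feeds threonine into glycine and acetyl-CoA in mouse ESC, read 16.31, 16.64 and 16.64 in V6.5 ESC, against 10.42, 9.95 and 9.84 in MEF, a link value of 6.81 ± 0.55 (adjusted p = 5.18e-06). Its partner in glycine use, Gldc of the glycine cleavage system, had a link value of 5.63 ± 0.11. Lrrc34 was not well above background on any MEF array. It was at least 72.6-fold higher in V6.5 ESC (limma adjusted p = 2.12e-06 for the link value). The bound is from the lowest MEF signal that counts as detected or the probe's own, whichever was higher. Cyct, the testis form of cytochrome c, was at 6.20 ± 0.06, Calca at 6.23 ± 0.30 and Khdc3, an oocyte and ESC protein, at 5.87 ± 0.27. In all, 193 of the genes called higher had no probe above background in MEF and 99 of those called lower had none in V6.5 ESC.

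The matrix program ran the other way. Of 27 collagen chains measured, 21 were lower in V6.5 ESC and 0 higher, with a median of -3.19 (dye-balanced -4.66). Col3a1 and Col5a2, chains of the fibrillar collagens, had link values of -5.61 ± 0.05 and -5.76 ± 0.20, and Col1a2 one of -5.26 ± 0.16. Col3a1 read 10.45, 10.45 and 10.53 in V6.5 ESC, against 17.31, 17.36 and 17.33 in MEF. The chains not called were Col18a1 (0.89), Col4a6 (-0.07), Col27a1 (-0.15), Col9a1 (-0.30), Col11a2 (-0.73) and Col15a1 (-0.87). Basement membrane chains Col4a1 (-3.56) and Col4a2 (-2.76, dye-balanced -5.11) fell with the fibrillar ones.

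Glycoproteins and proteoglycans of the matrix fell in 44 of 48 measured members and rose in 1, with a median of -3.34. Fbn1 (fibrillin) was at -5.34 ± 0.06 and Thbs1 (thrombospondin) at -5.21 ± 0.25. Aspn (asporin), a small leucine-rich proteoglycan, was not well above background on any V6.5 ESC array. By signal across the 2 dyes it was at least 42.5-fold lower there (limma adjusted p = 3.58e-06 for the link value). This bound holds any dye bias: the direct difference of the channels was -5.41 and the dye-balanced value -4.70, a smaller fall. Fn1 (fibronectin) was at -2.86 ± 0.03 and Sparc at -3.74 ± 0.04. The member that rose was Nid2 (1.30 ± 0.09), a nidogen of basement membranes, while its relative Nid1 fell (-1.76). Laminin chains differed: Lamb1 (-1.46) and Lama4 (-3.43) fell, Lamc1 was not called (-0.05), and Lama1, of the embryonic basement membrane, rose (1.92). With a dye term fitted over 18 arrays Lama1 was not called (adjusted p = 0.266). The 12 largest falls also held Fibin (-6.25 ± 0.30), a secreted protein, Ccdc80 (-6.05 ± 0.08), a matrix protein, Wls (-5.83 ± 0.09), which carries Wnt proteins to the surface, and Gjb2 (-5.66 ± 0.11), a connexin.

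Enzymes and inhibitors that process and remodel collagen fell in 36 of 42 measured members and rose in 1. Serpinh1 (Hsp47), the collagen chaperone, read 14.02, 14.00 and 14.02 in V6.5 ESC, against 18.41, 18.54 and 18.51 in MEF, a link value of -5.24 ± 0.07 (dye-balanced -3.72). Lox, which cross-links collagen, was at -4.61 ± 0.22, the protease inhibitor Timp2 at -5.02 ± 0.14 and the aggrecanase Adamts5 at -4.95 ± 0.06. The collagen hydroxylases P4ha1, P4ha2, Plod1 and Plod2 all fell, at -2.03, -3.28, -2.07 and -1.77 (dye-balanced -1.05 for Plod2). Mmp14 fell (-4.63), whereas Mmp3 was higher in V6.5 ESC (1.57 ± 0.34), and Mmp9 (0.02) and Mmp13 (-0.26) were not called.

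Actin cytoskeleton and smooth muscle type genes were lower in 50 of 54 measured members, with a median of -3.48, and none was higher. Cav1 (caveolin) read 10.73, 10.69 and 10.61 in V6.5 ESC, against 16.31, 16.33 and 16.36 in MEF, a link value of -5.80 ± 0.01 (adjusted p = 1.82e-06). S100a4 (-5.88 ± 0.16), a calcium-binding protein of fibroblasts, Fhl2 (-5.79 ± 0.04), a LIM-domain cofactor, Myl9 (-5.63 ± 0.39), a myosin light chain, and Tagln (-5.54 ± 0.07) were at similar values. Vim (vimentin), the intermediate filament of mesenchymal cells, was at -4.47 ± 0.04. The caveolar coat genes Cavin1, Cavin2 and Cavin3 fell by 4.05, 5.32 and 3.51 (dye-balanced -6.26 for Cavin3). Myocd, a cofactor of smooth muscle genes, was not called (-0.10), and its relative Mrtfa (-2.06) and the shared partner Srf (-1.04) fell.

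Transcription factors of mesenchyme fell in 37 of 47 measured members, with none higher and a median of -1.88. Snai2 (Slug) read 10.17, 10.32 and 10.27 in V6.5 ESC, against 15.23, 15.29 and 15.24 in MEF, a link value of -5.12 ± 0.09 (adjusted p = 1.84e-06). Foxc1 was at -5.21 ± 0.05 and Twist2 at -4.13 ± 0.10. The other regulators of the epithelial to mesenchymal transition, Snai1 (-2.61), Twist1 (-2.87), Zeb1 (-1.81) and Zeb2 (-3.35), fell as well. Hox genes fell in 21 of 36 measured members and rose in none. Hoxa11 (-4.43 ± 0.24), Hoxc9 (-4.21 ± 0.07) and Hoxa10 (-3.78 ± 0.21) had the largest differences. In the HoxA cluster Hoxa2, Hoxa5, Hoxa7, Hoxa9, Hoxa10 and Hoxa11 were called (Hoxa2, not well above background in V6.5 ESC, as at least 3.9-fold lower there), while Hoxa3 (-0.30), Hoxa4 (-0.82), Hoxa6 (-0.19) and Hoxa13 (-0.76) were not.

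Receptors and surface proteins of mesenchyme fell in 39 of 47 measured members, with none higher. Itga11, a collagen-binding integrin chain, read 11.03, 10.74 and 10.72 in V6.5 ESC, against 16.70, 16.70 and 16.73 in MEF, a link value of -5.75 ± 0.12. Cd248 (endosialin) was at -4.94 ± 0.03, Ddr2, a collagen receptor kinase, at -4.77 ± 0.11, and Pdgfrb at -4.71 ± 0.32. Secreted signals of fibroblasts fell in 34 of 52 measured members and rose in 2. Cxcl12 was at -5.42 ± 0.17, Ptn (pleiotrophin) at -5.10 ± 0.20 and Igfbp5 at -5.09 ± 0.34. For Ptn the direct difference of the channels was -6.86 and the dye-balanced value -8.63, so its size was not settled. Another Igfbp5 probe, well above background in both RNAs, was at -0.33. The 2 that rose were Mdk (midkine, 1.78 ± 0.08), the relative of Ptn, and Angptl4 (1.34 ± 0.15), so the pleiotrophin family pair went opposite ways.

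Genes of the Nodal, Fgf and Bmp pathways went both ways. Of 28 measured, 13 were higher and 6 lower. Of the Nodal branch, the ligand Nodal was at 3.30 ± 0.24, its co-receptor Tdgf1 (Cripto) at 4.50 ± 0.07, the receptor Acvr2b at 2.88 ± 0.27 and the feedback inhibitors Lefty1 and Lefty2 at 2.02 ± 0.32 and 1.80 ± 0.39. Nodal read 12.86, 12.79 and 12.88 in V6.5 ESC, against 9.36, 9.53 and 9.63 in MEF. Of the proteases that cleave the Nodal precursor, Pcsk6 rose (1.36) and Furin fell (-2.67 ± 0.24), and the nuclear partner Foxh1 was not called (-0.37). Of the targets of Fgf signalling, Etv5 (2.15), Etv4 (1.87) and Spry4 (1.71) rose, and Dusp6 (-0.38) and Spry2 (0.38) were not called. On the Bmp branch the targets Id1, Id2, Id3 and Id4 fell by 1.64, 1.18, 2.99 and 1.95. Bmp4 fell (-2.06 ± 0.14), whereas Bmp7 rose: it read 11.82, 10.98 and 11.29 in V6.5 ESC, against 7.47, 7.54 and 7.67 in MEF, a link value of 3.79 ± 0.62.

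DNA methylation genes had 13 of 31 measured members higher and 7 lower. Dnmt3l, the cofactor of the de novo methyltransferases, read 15.25, 15.49 and 15.51 in V6.5 ESC, against 10.52, 11.40 and 11.12 in MEF, a link value of 4.44 ± 0.41 (adjusted p = 8.26e-06). Dnmt3b, a de novo methyltransferase, read 12.07, 11.91 and 12.02 in V6.5 ESC, against 8.08, 8.64 and 8.66 in MEF, with a link value of 3.59 ± 0.49 (adjusted p = 2.7e-05). In both, the MEF signal of the clone 8 array was the lowest and the groups did not overlap. Dnmt3a, its relative, read 12.30, 11.24 and 11.81 in V6.5 ESC, against 10.24, 10.19 and 10.19 in MEF. Its link values were 1.96, 0.98 and 1.37, a mean of 1.44 ± 0.49 (adjusted p = 0.0011). The other 2 Dnmt3a probes disagreed with each other, at link values of 2.39 and -0.71. Dnmt1, the maintenance enzyme, was at 0.98 ± 0.20 (adjusted p = 0.000291), just under the size threshold, and was called at 1.63 when dye-balanced and at 1.09 without clone A6. In the linking clones Dnmt3a averaged 9.79 in Cy5, and Dnmt3b averaged 13.37, above its V6.5 ESC signals. The sources used here do not say whether these probes lie in the deleted part, so they do not check the clones' genotype.

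The remaining members of the methylation list are given by role. Dppa3 (Stella), which protects methylation in the early embryo, was at 4.62 ± 0.47, Hells at 2.82 ± 0.11, Uhrf1, the partner of Dnmt1, at 1.70 ± 0.02, and the imprint protector Zfp57 at 1.94 ± 0.21. The demethylating dioxygenases Tet1 (1.69) and Tet2 (1.99) rose, whereas Tet3 fell (-1.38). The methyl-CpG readers Mbd1 (-2.02), Mbd2 (-1.58), Zbtb33 (-1.02) and Zbtb4 (-3.31) fell, Mbd3 was not called (-0.71), and Mbd4, which also repairs mismatches, rose (1.88). The other Mbd1 probes, well above background in both RNAs, were at -0.79 and -0.42. Gadd45g, of a family tied to demethylation, fell (-3.24 ± 0.19). Polycomb genes, which silence developmental regulators, had 11 of 30 measured members higher and 6 lower. Related members went opposite ways in several cases. Cbx7 rose (5.05 ± 0.30), while Cbx6 (-1.15) fell. Phc1 rose (3.31 ± 0.08) and Phc2 fell (-2.17 ± 0.26), and the catalytic Ezh2 rose (1.99) with Ezh1 not called (0.63). Mtf2 (4.22 ± 0.08) and Jarid2 (2.98 ± 0.18), accessory subunits in ESC, and the core Suz12 (2.18) and Eed (1.59) were higher, and Bmi1 (-1.68) and Yaf2 (-2.07) were lower. Of the RNA regulators, Lin28a (3.52 ± 0.32), which blocks let-7 maturation, Lin28b (2.65) and the splicing regulator Esrp1 (at least 4.83-fold, with MEF not well above background) rose and the splicing factors Mbnl1 (-3.36) and Mbnl2 (-2.65) fell, with 5 of 20 higher and 2 lower. The other Mbnl1 probes were at 0.05 and -0.12, and those of Mbnl2 at -2.25 and -0.34.

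Imprinted genes, of which only the copy from 1 parent is read in at least some tissues, were called lower more often than higher. Of the maternally expressed ones 15 of 31 measured members fell and 3 rose; of the paternally expressed ones 8 of 30 fell and 4 rose (2 without clone 8). Grb10 (-4.01 ± 0.20), Dcn (-3.84 ± 0.24) and Plagl1 (-4.08 ± 0.25) were among the largest falls, with dye-balanced values of -3.56, -3.65 and -3.59. Phlda2, a placental growth restrainer, was the largest rise (4.23 ± 0.12), and Ppp1r9a (3.25 ± 0.36), Gab1 (2.65 ± 0.26), Slc38a4 (1.49 ± 0.12) and Slc22a18 (1.26 ± 0.31) rose too. These are values of the brightest probe. Other probes of Slc38a4 (-0.30), Slc22a18 (0.21) and Plagl1 (-0.68), well above background in both RNAs, did not reach 1 log2 unit. Igf2, a growth factor gene, read 10.87, 10.82 and 10.78 in V6.5 ESC, against 17.27, 17.25 and 17.26 in MEF. Its link value was -3.52 ± 0.12 (adjusted p = 2.26e-06), the direct difference of the channels -6.44 and the dye-balanced value -9.35. H19, the noncoding RNA beside it, averaged 10.82 ± 0.31 in V6.5 ESC and 15.94 ± 0.03 in MEF (SD, 3 arrays each), with a link value of -2.40 ± 0.27 and a dye-balanced value of -7.84. Both fell by every measure, but the size of the fall was not settled by these arrays. Of the Dlk1 to Dio3 region, Dlk1 (-3.38 ± 0.18) and Meg3 (-1.71) fell, and Rian (-0.85) and Dio3 (-0.76) were not called. Snrpn, at 1.02 ± 0.15 (dye-balanced 1.67), was no longer called without clone 8 (0.94) and Peg3, at -0.02 ± 0.84, was split by array, as described next.

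The genes that set the clone 8 array of V6.5 ESC apart included X-linked genes and an imprinted one. Of the 63 that were lower there, 57 had a known chromosome and 17 of these lay on the X (29.8%), against 3.38% of the tested genes with a known chromosome. Xlr5c, of an X-linked lymphocyte-regulated family, read 7.25, 10.41 and 10.08 in V6.5 ESC, against 7.23, 7.51 and 7.86 in MEF, so V6.5 ESC was at the MEF level on the clone 8 arrays and above it on the others. Its link values were 0.18, 3.05 and 2.29 (mean 1.84 ± 1.48, limma adjusted p = 0.0274). Rhox2a, a homeobox gene of the X, had link values of 0.48, 2.76 and 2.01, Efhc2 of 1.16, 2.95 and 2.28 and Spink2, on chromosome 5, of 0.46, 2.14 and 1.28. Peg3, a paternally expressed imprinted gene, read 8.70, 10.53 and 10.09 in V6.5 ESC, against 9.50, 9.62 and 9.57 in MEF, and its links were -0.96, 0.67 and 0.22. Xlr and Rhox genes have near-identical copies, so these probes may not tell single members apart. Of the 63 genes, 44 were called higher and 6 lower. They were chosen on these same arrays, so these counts are a description. The partner clone, in Cy3 on the same V6.5 ESC arrays, was also lowest for clone 8 in the genes named here. It read 9.62, 11.35 and 12.28 for Xlr5c and 10.22, 12.77 and 12.64 for Spink2. This did not hold for all of the 63: for Scml2 it read 10.93, 10.09 and 10.44. Whether V6.5 RNA, the partner clone or the slide moved these values was not tested.

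**Figure D3:**
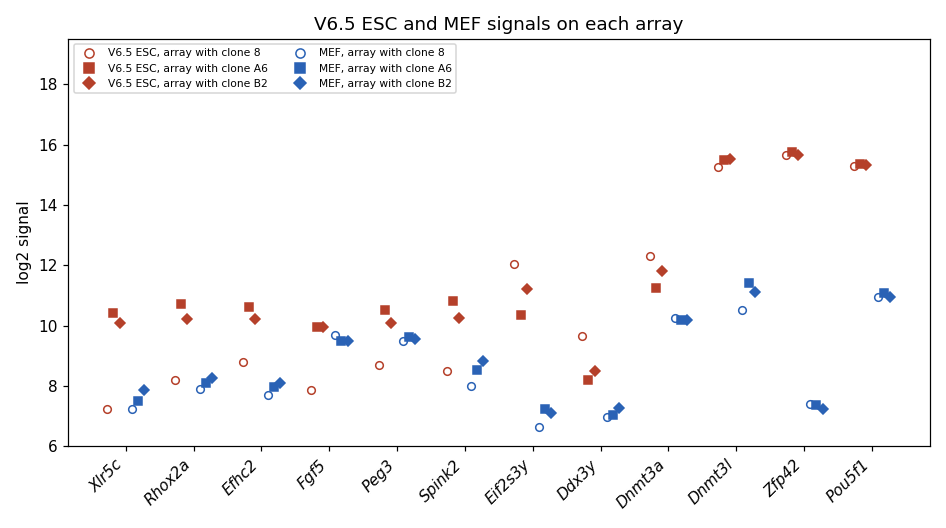
Log2 signal of V6.5 ESC (red, left of each pair) and MEF (blue, right) on each of the 3 arrays, by the clone in the partner channel. Xlr5c, Rhox2a, Efhc2, Fgf5, Peg3 and Spink2 are low in V6.5 ESC on the clone 8 array (open circles) and the Y-linked genes and Dnmt3a high there, while Zfp42 and Pou5f1 stay together.

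The Y-linked genes Eif2s3y and Ddx3y went the other way on that array. Eif2s3y, a Y-linked translation factor, read 12.05, 10.34 and 11.22 in V6.5 ESC, against 6.64, 7.23 and 7.10 in MEF, where no array was well above background. It was at least 15.7-fold higher in V6.5 ESC (limma adjusted p = 0.000713 for the link value, not for the bound). Ddx3y, a Y-linked helicase, read 9.65, 8.20 and 8.48 in V6.5 ESC, against 6.97, 7.05 and 7.27 in MEF, again below background. This gene was at least 2.9-fold higher in V6.5 ESC (limma adjusted p = 0.0113 for the link value). Its fitted link value, which is no bound, was 1.77 with all clones and 1.13 without clone 8, and with a dye term from 18 arrays it was not called (adjusted p = 0.073). In Cy3 on the V6.5 ESC arrays the partner clones read 10.29, 7.99 and 8.06 for Ddx3y, also highest for clone 8. Of 11 Y-linked genes tested these 2 were higher and 0 were lower. Uba1y, Kdm5d, Uty, Zfy1 and Zfy2 were among those not called. Uba1y (links of 2.00, 0.24 and 0.18) and Uty (0.96, 0.05 and 0.09) were likewise highest through clone 8, with MEF not well above background. V6.5 is known as a male line. Xist, the noncoding RNA of the inactive X, had 4 probes. The brightest over all channels read 8.91 in V6.5 ESC and 9.44 in MEF on average and was not called, at -0.59 ± 0.07. Of the other 3, all called lower in V6.5 ESC, 1 had a link value of -2.07, with V6.5 ESC above background on 1 of 3 arrays. The remaining probes averaged 12.28 and 10.93 in MEF, brighter there than the first probe, and were above background on all 3 arrays. In V6.5 ESC they averaged 7.50 and 7.48 and were above it on 0 of 3, so no size is given for them. Of 585 X-linked genes tested, 89 were higher and 119 lower.

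Genes of cell division were higher in V6.5 ESC. Of the S phase list 22 of 28 measured members rose and 0 fell, with a median of 1.85, and of the G2 and M phase list 24 of 28 rose and 0 fell, with a median of 1.67. Mcm3, a subunit of the replicative helicase, read 15.94, 16.24 and 16.23 in V6.5 ESC, against 13.34, 13.44 and 13.41 in MEF, a link value of 3.12 ± 0.10 (adjusted p = 2.56e-06). All 6 core Mcm helicase subunits, Mcm2 to Mcm7, were called higher, at 1.68 to 3.12. Cenpf (2.73 ± 0.04), Bub1 (2.67 ± 0.09) and Aurkb (2.27 ± 0.23), which act at the kinetochore, were higher too. Mki67 was not called (0.55). Among p53 targets and cell cycle inhibitors, 11 of 33 fell and 2 rose (4 when dye-balanced). Cyclin Ccnd2 was at -4.65 ± 0.17 and Ccnd1 at -1.40 ± 0.25, whereas Ccne1, the cyclin of S phase entry, rose (1.40 ± 0.06). The inhibitors Cdkn2b (-3.53 ± 0.14), Cdkn1a (-1.94), Cdkn2c (-1.61) and Cdkn2a (-1.17) and the kinase Plk2 (-2.81 ± 0.28) fell, and Cdkn1b was not called (-0.37). Trp53 itself was not called (0.78).

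Among metabolic genes, members of one enzyme family often differed. In glycolysis 9 of 21 measured members rose and 1 fell. Slc2a3, the neuronal type glucose transporter, was at 3.23 ± 0.16, Slc2a1 at 2.42 ± 0.10, and Hk2 rose (2.04) with Hk1 not called (-0.43). Ldhb read 16.50, 16.64 and 16.56 in V6.5 ESC, against 13.18, 13.22 and 13.26 in MEF, a link value of 3.64 ± 0.09, and Ldha was not called (0.67). Eno2 fell (-1.09 ± 0.43), but was not called when dye-balanced (-0.55) or without clone A6 (-0.91). The calls of Aldoa (1.57) and Gpi1 (1.04) were lost as well, at dye-balanced values of 0.04 and 0.14. In amino acid and one-carbon metabolism 11 of 27 rose and 4 fell (1 when dye-balanced). Mthfd1 rose (2.31 ± 0.08), while Phgdh, the first enzyme of serine synthesis, fell (-1.93 ± 0.05). Psat1, of the same route, at -1.12, and the transporter Slc7a5, at -1.23, were called by link and not when dye-balanced (-0.96 and -0.97). Respiratory chain genes had 4 of 30 higher (2 when dye-balanced), among them Cox7a1 (3.46 ± 0.04), and cholesterol synthesis genes 4 of 22 lower, among them Sc5d (-1.91 ± 0.20), Cyp51 (-1.82 ± 0.04) and Hsd17b7 (-1.69 ± 0.15). Both counts are near what 12.5% and 14.9% of all genes would give. The other Cyp51 probes were at -1.47 and -0.32, and the other Sc5d probe was at -0.67.

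Cytosolic ribosomal protein genes were called higher in 20 of 38 measured members, with a median of 1.08, but 0 of 38 when dye-balanced, with a median of 0.045. Rpl5 read 17.86, 18.07 and 18.07 in V6.5 ESC, against 17.10, 17.07 and 17.11 in MEF, a link value of 1.86 ± 0.23 and a dye-balanced value of -0.05. The same clones read Rpl5 higher in Cy5 than in Cy3 by 0.95. Rps18 was at 1.73 ± 0.11 by link and -0.14 dye-balanced, and Rpl8 at 1.75 ± 0.15 and 0.26. The ATP synthase genes Atp5b (1.59 ± 0.18) and Atp5a1 (1.46 ± 0.19) likewise lost their calls when dye-balanced, at 0.28 and 0.45. For these genes the call was thus made by the link value alone. Of common housekeeping genes 6 of 19 were higher (3 when dye-balanced) and 3 lower: Actb (-2.58 ± 0.16, dye-balanced -1.22), Gusb (-1.78 ± 0.16) and B2m (-3.40 ± 0.31) fell, and Tfrc (1.84 ± 0.22) and Eif4a2 (1.46 ± 0.12) rose. Ppia (0.06) was not called, and Hprt was called by link with a dye-balanced value of 0.61.

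Interferon and class I presentation genes fell in 15 of 39 measured members and rose in 5. B2m, the light chain of class I molecules, read 11.12, 10.63 and 10.79 in V6.5 ESC, against 14.74, 14.69 and 14.69 in MEF. The class I heavy chains H2-K1 (-2.36) and H2-D1 (-2.02) and the receptor chain Ifngr1 (-2.96 ± 0.19) fell with it. Irgm1, an interferon-induced GTPase, read 8.91, 10.43 and 10.19 in V6.5 ESC, against 12.83, 12.86 and 12.93 in MEF, with link values of -3.50, -2.48 and -2.78. Ifitm1 (2.64 ± 0.15), Oas1a (1.75 ± 0.07) and Bst2 (1.64 ± 0.07) rose.

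**Figure D4:**
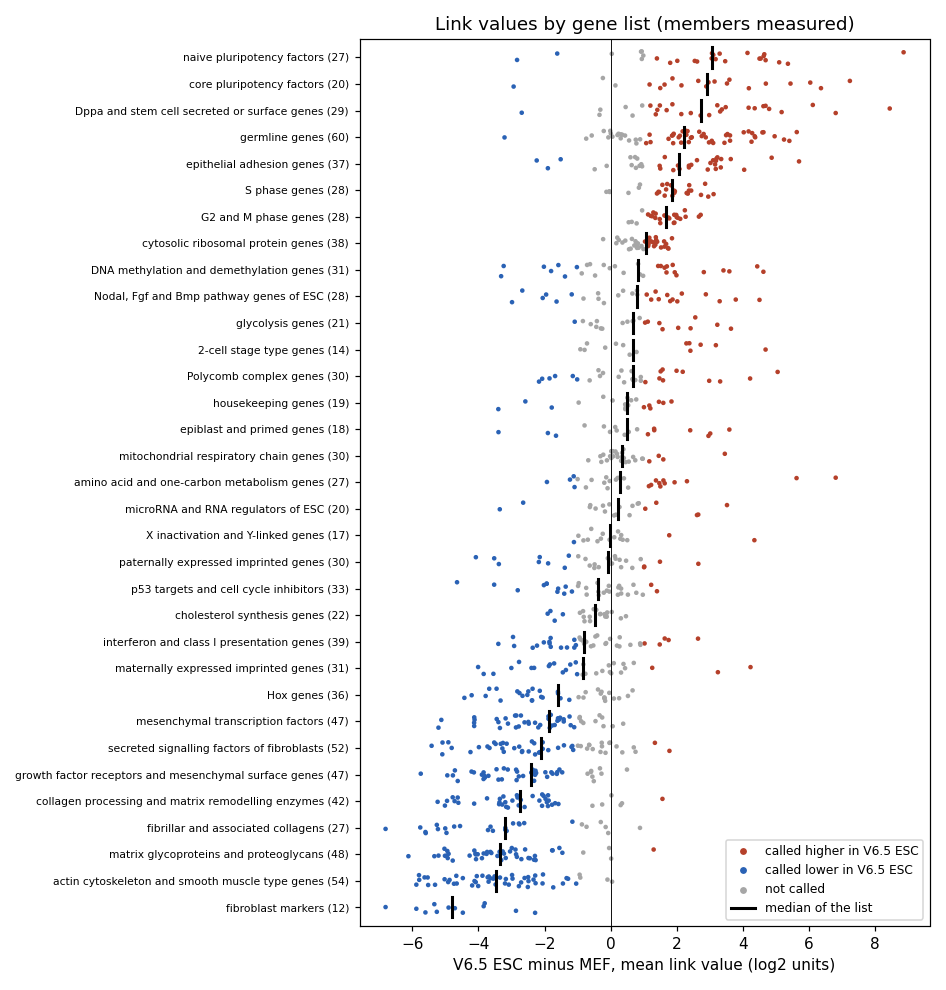
Mean link value of each measured member of the gene lists with at least 12 measured members, in log2 units, V6.5 ESC minus MEF; bars are list medians and the number measured is in brackets. Medians run from 3.07 for naive pluripotency factors to -4.81 for fibroblast markers.

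Markers of other cell types went both ways. Of endothelial markers 1 of 6 measured was higher, Pecam1 (2.43 ± 0.18), which ESC express too, while Cdh5 and Kdr (0.05) were not called. Of macrophage markers 1 of 4 was higher, Cd68 (2.10), and Ptprc and Tyrobp did not pass the filter on detection. Of skeletal muscle markers Tnnt1 rose (2.65) and Des fell (-2.05), with Myod1 (0.07) and Myog (0.07) not called. Neural markers were mixed, with Elavl3 (2.84) and Stmn2 (2.10) higher and Nes (-2.71), Tubb3 (-1.17) and Map2 (-1.12) lower. Tubb3 and Map2 lost their calls when dye-balanced (-0.74 and -0.60), and Map2 lost it without clone 8 as well (-0.94). Of primitive endoderm markers Lama1 was higher, Dab2 (-2.91) and Gata6 (-1.04) were lower, and Gata4 (0.07), Sox17 and Sox7 were not called. Gata6 was no longer called without clone A6 (-0.94) or without clone B2 (-0.92). Of trophoblast markers Krt8 was higher (2.37), and Cdx2 (0.30) and Hand1 (0.76) were not called. The part of such cells in the results was not tested.

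Each clone was read on both of its arrays, in Cy5 beside MEF and in Cy3 beside V6.5 ESC. The median signed difference of these readings was -0.05 log2 units. Normalisation centres this median, so it does not show how close the readings of single genes were. In 64 genes the Cy5 signal was called higher (0.292%) and in 3 lower (0.0137%). Of the 64, 60 were genes called lower in V6.5 ESC than in MEF and 3 were called higher. Fbln5 (fibulin), an elastic fibre protein, read 8.97, 8.93 and 8.80 in V6.5 ESC, against 17.12, 17.07 and 17.09 in MEF, and the clones differed by 3.41 between their 2 readings (adjusted p = 1.32e-07). Its link value was -4.78 ± 0.04, the direct difference of the channels -8.19 and its dye-balanced value -11.60. Postn (periostin) differed by 2.38, with a link value of -4.91 ± 0.11, a direct difference of -7.29 and a dye-balanced value of -9.68. Igf2 and H19 differed by 2.91 and 2.72, Thbs2 by 1.93 and Eln (elastin) by 1.88. The dye-balanced value of Thbs2 was -6.57, against a link value of -2.70, and that of Eln -6.35, against -2.59. In 61 of the 64 genes the dye-balanced value was larger in size than the link value. For these genes it is not a corrected size, and the size of the difference was not settled by these arrays. Col1a1 (-0.83) and Serpinh1 (-0.76) went the opposite way. Of the 6009 genes called, 644 had a dye-balanced value that differed from the link value by over 1.5 times, and 28 changed sign. When dye-balanced, 308 of the genes called higher and 614 of those called lower were no longer called. Another 476 genes were called higher and 97 lower only then. All 12 fibroblast markers were lower by both measures, and their medians were -4.81 by link and -5.47 dye-balanced. Probe, dye and partner RNA cannot be told apart in these differences. The link and dye-balanced values both take a clone's RNA to be the same on its 2 arrays, and whether it was the same extract, with no carried-over feeder RNA on one of them, was not tested.

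**Figure D5:**
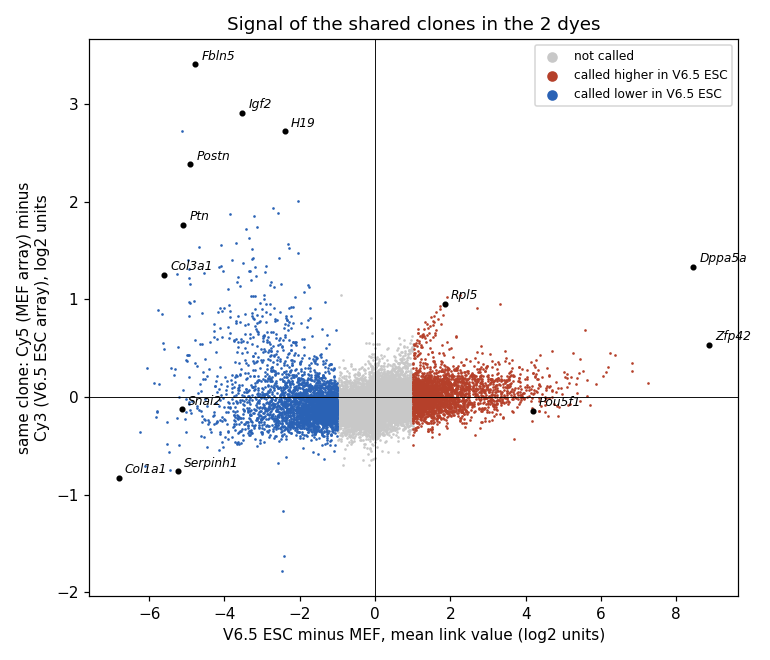
Signal of the shared clones in Cy5 (MEF array) minus Cy3 (V6.5 ESC array), y axis in log2 units, against the link value of V6.5 ESC over MEF, x axis. Of all genes tested, 64 were called higher in Cy5 and 3 lower. Fbln5, Igf2, H19 and Postn, lower in V6.5 ESC, lie 2.38 to 3.41 above 0.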

How the data were processed

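The series was read from 2-colour Agilent 44k mouse expression arrays, per the labels. Spot intensity (mean and background signal), the scanner's own processed signals and a log10 ratio were taken from the deposited scanner output, per the file headers, with no normalisation used from it in the main values. The authors' deposited value table holds log2 ratios of clone over partner, a direction found by setting it against the scanner values. Per the submitters' processing notes limma was used, and how the table was scaled is not given in the sources used here.

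Spots of the 6 arrays were background-corrected (normexp, offset 50), normalised within arrays by loess and between arrays by Aquantile, with outlier spots (0.263% to 0.42%) left out. Probes needed 2 of 3 channels of V6.5 ESC or of MEF well above background, and the brightest such probe stood for a gene. Several probes were kept for 7306 genes, of which 21 had probes called in both directions. Of 21941 genes, 13945 were named by accession, 2249 by symbol and 1127 by older symbol through the RefSeq table, and 4620 kept the file's name. Link values were tested against 0 (limma 3.58.1 in R 4.3.3, intercept only, n = 3 links, Benjamini-Hochberg over all genes). The code was tested on simulated data. The precision is limited by the number of arrays. All 6 were scanned on 1 day, the clone 8 pair on 1 slide and the others on another, so the value within the second slide is the one without clone 8. Bounds written "at least" set the brighter mean in one dye against the lowest signal counted as detected, or the probe's own if higher, in the other. They allow for background only and hold any dye bias, so a dye-balanced difference can be smaller. An adjusted p beside a bound is that of the link value.

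Genes named were 9 fixed ones, the 12 largest changes each way and up to 3 called members per list each way; other genes are examples chosen after their values were seen. Members and the 41 lists were chosen with earlier results of these data known. No column of the value table lacked a sample. Alternatives were dye-balanced values, channel differences, a dye term from 18 arrays, offset 10, the scanner's processed signals, median centring, the authors' table, other filters, the mean of probes, a test against 1 log2 unit (treat) and leaving out each clone.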

Additional observations from a re-analysis of the deposited data

How the results depend on the processing

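The 2737 genes called higher and 3272 called lower in V6.5 ESC numbered 2618 to 2865 and 3170 to 3364 when each clone was left out, and both counts stayed within 1.5 times under all other settings except these. The scanner's processed signals gave 4195 higher (53.8% of calls, 45.5% in the main values). Centring each array on its median, with no loess, gave 29 higher and 675 lower (4.1% higher), and left Zfp42 at 8.07 and Col1a1 at -7.08. Without the threshold on size 13930 genes passed. The dye-balanced values centred on 0.111 over all genes, against 0.006 in the main values, and gave 2906 higher and 2754 lower (51.3% higher). These dye-balanced values dropped 308 higher and 614 lower calls and added 476 and 97. They turned Rpl5 to -0.0505 and Rps18 to -0.14. Medians of lists near 0 also turned: that of the microRNA regulators was -0.34 and that of the respiratory chain -0.0941 under median centring; the median of X inactivation and Y-linked genes was 0.0792 dye-balanced, 0.0588 by channels, 0.0525 by the scanner's signals, 0.0427 by the authors' table and 0.0327 by the mean of probes; the median of macrophage markers was 0.20 dye-balanced, 0.0822 by channels and 0.11 under median centring; and that of the skeletal muscle markers -0.25 with the dye term from 18 arrays. Those were 11 of the list medians under the alternatives, while 227 others were classed as moved with no turn and 295 as the same. Of the named genes' values under the alternatives, 2085 kept direction and side of the threshold, 170 lost the call, 5 gained one and 2 turned. The cause was not tested. The main values are paired by clone; without that pairing, by channels, 2745 genes were called higher and 2989 lower. Signal over background limits 193 genes called higher and 99 called lower to bounds.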
